A study of Homo sapiens with 2 samples.

Results

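The genes described here are 39 long genes with roles in the adhesion of nerve cells and in the synapse, listed by name for their known function and size, with earlier results from the same peaks in view, as was a contrast list of long genes of epithelial or general use. They were looked up in a list of 18070 mERG peaks that name 5011 genes, and 14 of these peaks named 7 of the 39 genes. The peaks come from ChIP-seq, in which crosslinked chromatin is pulled down with an antibody and the recovered DNA is sequenced, with an antibody raised against the lysine-methylated form of the transcription factor ERG (mERG). The cells were VCaP, an established prostate cancer cell line of epithelial type that carries the TMPRSS2-ERG fusion, kept in regular growth medium with no further treatment named. The groups were 1 mERG ChIP library and 1 control library, whose labels give both input and IgG, so that its kind was not settled. No value has a replicate, the read depth is unknown from the list, and every interval below covers counting error only. Gene expression was not measured in these files, so the labelled cell line could not be checked against its markers.

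Neurexins, neuroligins, contactins and related cell surface proteins join nerve cells to each other and organise the synapse, while glutamate receptors and the scaffolds beneath them receive the signal. Many of the genes for these proteins are among the longest in the human genome, with short exons spread over very large introns, and they are best known from the brain. Some are also used elsewhere, for example ERBB4 in the breast and heart and MAGI2 in the kidney. ERG belongs to the ETS family of transcription factors, which bind DNA at a GGAA core. The question addressed was how often long genes of neural function carried mERG peaks in an epithelial cancer line, beside long genes that epithelial cells use.

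The few member genes with a peak are best seen through the DNA beneath it. The following stretches are the plus strand of the reference genome (GRCh37, which is hg19) at the strongest peak that was both named for a member and inside it for each of 4 genes, at the strongest peak inside CADPS, and at the strongest peak named for GRIK4. Capitals mark GGAA or its reverse complement TTCC. For GRIA1 and GRIK4 the central 300 bp of the peak are given.
CNTN4, chr3:2534005-2534231: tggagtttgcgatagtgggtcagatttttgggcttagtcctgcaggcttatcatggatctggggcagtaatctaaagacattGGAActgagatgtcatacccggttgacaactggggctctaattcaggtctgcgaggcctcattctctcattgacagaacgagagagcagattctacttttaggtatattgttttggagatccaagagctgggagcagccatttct
CNTNAP2, chr7:146136432-146136587: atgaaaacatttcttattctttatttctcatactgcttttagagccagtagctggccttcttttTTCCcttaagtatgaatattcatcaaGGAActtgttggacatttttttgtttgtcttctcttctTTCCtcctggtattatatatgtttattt
NRXN3, chr14:80172310-80172568: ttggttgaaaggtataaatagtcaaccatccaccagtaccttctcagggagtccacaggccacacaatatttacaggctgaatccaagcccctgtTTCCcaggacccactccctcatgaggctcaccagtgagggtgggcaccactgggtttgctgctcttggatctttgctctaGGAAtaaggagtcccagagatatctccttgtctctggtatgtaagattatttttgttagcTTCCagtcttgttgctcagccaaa
GRIA1, chr5:152930708-152931007: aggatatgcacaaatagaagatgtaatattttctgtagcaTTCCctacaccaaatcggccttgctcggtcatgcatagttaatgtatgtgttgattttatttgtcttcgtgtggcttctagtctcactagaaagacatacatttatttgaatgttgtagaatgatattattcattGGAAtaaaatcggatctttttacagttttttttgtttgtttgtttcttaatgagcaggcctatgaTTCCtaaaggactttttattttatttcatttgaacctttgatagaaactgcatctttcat
CADPS, chr3:62418882-62419111: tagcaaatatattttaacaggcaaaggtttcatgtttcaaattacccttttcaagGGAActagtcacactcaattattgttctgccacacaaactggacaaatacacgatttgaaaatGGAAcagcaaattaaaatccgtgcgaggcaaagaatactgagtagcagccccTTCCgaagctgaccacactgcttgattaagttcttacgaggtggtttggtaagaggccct
GRIK4, chr11:120351130-120351429: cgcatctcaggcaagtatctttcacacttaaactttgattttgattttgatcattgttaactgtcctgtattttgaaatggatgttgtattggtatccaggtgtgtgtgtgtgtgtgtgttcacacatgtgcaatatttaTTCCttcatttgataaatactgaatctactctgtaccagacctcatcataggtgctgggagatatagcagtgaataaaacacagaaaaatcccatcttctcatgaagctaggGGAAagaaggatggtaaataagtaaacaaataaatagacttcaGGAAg

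Each of the 6 stretches held between 1 and 3 GGAA or TTCC words, and the longer ETS core CCGGAAGT was found in 0 of them. Over all 24 peaks that were named for a member or centred inside one, 24 had GGAA on either strand within the 300 bp around the peak centre, against 92.5% of 18013 other peaks. The longer word AGGAAGT, which contains GGAA, was found on either strand in 2 of the 24 (8.33%, Wilson 95% interval 2.32 to 25.8%) and in 6.22% of the other peaks. The word CCGGAAGT, which also contains GGAA, was found in 0 of the 24, which allows a share of up to 12.5%, and in 0.0722% of the others. GC content had a median of 36.8% in the windows of the 24 peaks and 38.3% in those of the others. A word match describes the reference sequence and does not show that ERG was bound there.

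The share of member genes named by a peak was close to that of protein-coding genes at large. The peak list names the gene whose transcription start site (TSS) is closest to the peak centre, at any distance. By this measure 7 of 39 genes (17.9%, Wilson 95% interval 8.98 to 32.7%) had a peak, while 20.3% of the 20110 protein-coding genes outside the list did. The member genes run from 283 kb (CNTNAP4) to 2474 kb (RBFOX1), with a median of 959 kb, so a background closer in length is the 865 other protein-coding genes at least as long as CNTNAP4, called other long genes from here on, with a median length of 422 kb. Of these, 32.6% (interval 29.6 to 35.8%) were named by a peak, and the intervals of both groups overlap. No peak was detected by name for the other 32 member genes.

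A gene can also be scored by the peaks whose centre lies inside it, whichever gene they are named for. Here 11 of 39 member genes (28.2%, interval 16.5 to 43.8%) held a peak, against 42.2% (interval 38.9 to 45.5%) of the other long genes, again with overlapping intervals. The groups were further apart in how many peaks a gene held. Among genes with a peak inside, the member genes held a median of 1 and at most 2, while the other long genes held a median of 3 and up to 100. At least 3 peaks were found in 0 of 39 member genes, which allows a share of up to 7.69%, and in 185 of 865 other long genes (21.4%). Together the member genes held 15 peak centres in 40.5 Mb, or 0.371 per Mb (exact Poisson 95% interval 0.207 to 0.611), whereas the other long genes held 3140 in 441.5 Mb, or 7.11 per Mb (interval 6.86 to 7.36). Peaks cluster within genes, so these intervals are narrower than the true error. A large part of the second value came from few genes, since the densest 86 of the 865 held 74.2% of the peaks. Without these, a check chosen after seeing the data, the other long genes still held 1.98 peaks per Mb (interval 1.85 to 2.13). Outside the bodies of protein-coding genes the genome held 0.820 peaks per Mb (interval 0.775 to 0.866), which is above the pooled density of the member genes. By chromosome, the members were lower than this space on 13 of 16 chromosomes and higher on 3, namely chromosome 3 (1.01 against 0.574 per Mb), chromosome 14 (1.18 against 0.395) and chromosome 18 (0.464 per Mb, against 9 peaks in 45.0 Mb). On 8 of the 13 the members held 0 peaks, so any peak in that space made them lower, and the direction there says little. At the density of that space on each member's own chromosome, 38.1 peaks would fall into the member genes, and 15 were found.

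**Figure D1:**
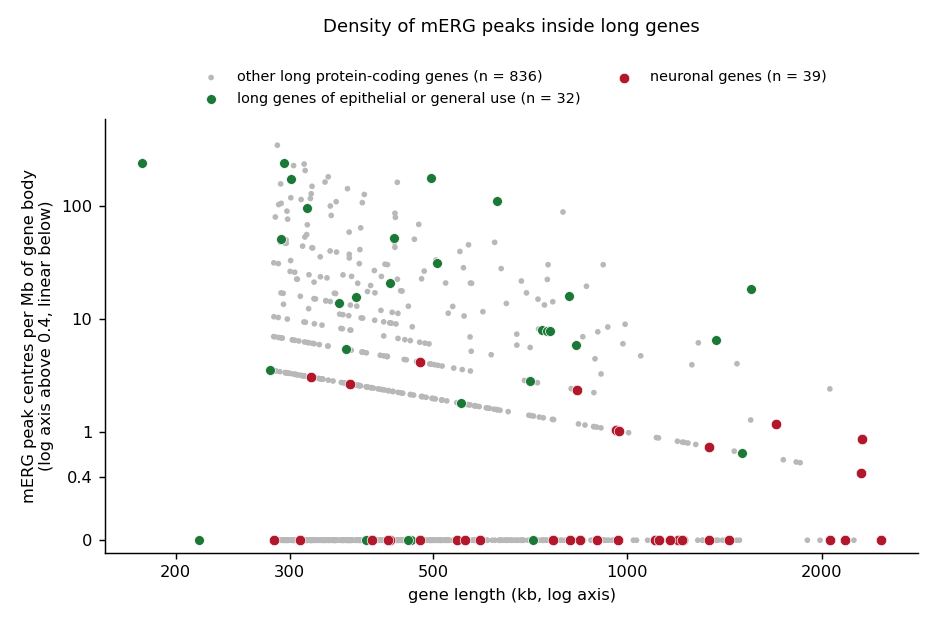
Peak centres per Mb of gene body (log axis above 0.4, linear below) against gene length (kb, log axis), with 1 point per gene for the 39 neuronal genes, 32 long genes of epithelial or general use and 836 remaining long protein-coding genes. The neuronal genes lie at 0 or between 0.435 and 4.19 per Mb and none reaches the upper part of the plot, while the median of the other long genes is also 0, and points along a slanted line hold the same whole number of peaks.

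Length did not order the member genes by the number of peaks inside. Pooled peaks per Mb, given below by length class, fell with length in members and other long genes alike, though the intervals of the members overlap. Spearman's rho between gene length and the number of peaks inside was 0.07 over the 39 member genes and −0.06 over the 865 other long genes, values that come from 1 library and 1 annotation and are given as a description. Among genes under 500 kb, 3 of 9 members and 42.7% of the other long genes held a peak. Between 500 kb and 1 Mb it was 4 of 13 members and 40.8% of the others, and from 1 Mb upward 4 of 17 members and 42.6% of the others. In peaks per Mb, the members were at 1.14, 0.471 and 0.228 in these classes and the other long genes at 11.7, 3.75 and 1.17. The density of the members was lower in each class, and in the longest class the intervals were 0.0835 to 0.495 for members and 0.933 to 1.45 for the others.

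**Figure D2:**
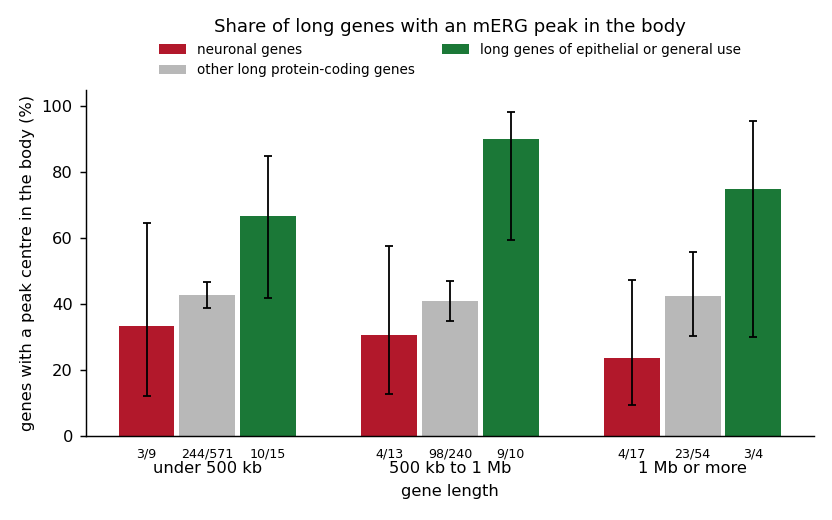
Share of genes with at least 1 peak centre inside (percent, bars with Wilson 95% intervals as lines and counts below) in 3 length classes, the first starting at 283 kb. The neuronal genes, at 33.3%, 30.8% and 23.5%, were below the other long genes, which include the epithelial list, at 42.7%, 40.8% and 42.6%, but the lines overlap.

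Among the cell adhesion genes, the contactins and contactin-associated proteins, which pair up along axons, had peaks in 2 of 6 members. CNTN4 (chromosome 3, 2140497 to 3099643), a contactin of growing axons, had 1 peak, in intron 3, 254 kb downstream of its TSS, with a score of 33.3. The score grows as the p-value of the peak caller MACS falls, being read here as log10 p multiplied by −10, and its median over the list was 40.9. CNTNAP2 (chromosome 7, 145813094 to 148118090), which clusters potassium channels on axons, was named by a peak in intron 1 with a score of 35.1 and by an intergenic peak 520 kb upstream with a score of 35.4. A further peak in intron 2 of CNTNAP2, with a score of 35.6, was named for the microRNA gene MIR548AQ. The 2 peaks inside CNTNAP2 lay 323 and 696 kb from the start of a gene of 2305 kb. CNTN5, CNTN6, CNTNAP4 and CNTNAP5 had no peak by name or inside.

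The IgLON proteins are small adhesion molecules held to the neuronal membrane by a lipid anchor. LSAMP held 1 peak of score 38.3, 24.7 kb from the annotated gene start, which the list called intergenic and named for LINC00901. NTM and OPCML, neighbours on chromosome 11, had none. The cadherins CDH12 and CDH18, which bind cells to each other in a calcium-dependent way, held 0 peaks in 2.21 Mb, which allows up to 1.36 per Mb. Among receptors that guide axons, DCC, the netrin receptor, held none, and DSCAM, on chromosome 21, held 2 in introns 3 and 4 with scores of 36.0 and 39.3. Both DSCAM peaks were named for its antisense RNA gene DSCAM-AS1.

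Synaptic organizers are surface proteins that align the sending and receiving sides of a synapse. NRXN3 (chromosome 14, 78636716 to 80334634), a neurexin of the sending side, was named by 2 peaks, which lay inside it at 122 kb and 427 kb from the TSS that the list used. Their scores were 33.3 and 36.0. PTPRD, a receptor phosphatase, held 1 peak in intron 10 with a score of 33.1, named for PTPRD-AS1. NLGN1, a neuroligin that binds neurexins from the receiving side, and LRRTM4, a further neurexin partner, held none. The postsynaptic scaffolds had 0 peaks in DLG2 over 2173 kb, 0 in MAGI2 over 1437 kb, and 1 in DLGAP1 with a score of 33.2.

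The glutamate receptors, which carry most fast excitation in the brain, were the largest group, with 11 genes. GRIA1 (chromosome 5, 152869175 to 153193429), an AMPA receptor subunit, was named by 1 peak in intron 3, 59.1 kb from its TSS, and its score of 40.5 was the highest of any peak inside a member gene. GRIA4, a second AMPA subunit, held 1 peak of score 33.3 near its far end, at 97.7% of the gene, named for the neighbour MSANTD4. GRM7, a metabotropic receptor, held 1 peak of score 33.1 in intron 5, named for GRM7-AS1. The kainate receptor genes GRIK1 and GRIK2, the delta receptor gene GRID1, the NMDA receptor genes GRIN2A and GRIN2B, and the metabotropic receptor genes GRM5 and GRM8 had no peak by name or inside.

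GRIK4 (chromosome 11, 120382455 to 120859615), which encodes a kainate receptor subunit, was named by 6 peaks, the most of any member, and held 0 inside. All 6 lay between 27.0 and 51.6 kb upstream of its TSS, within the neighbouring gene ARHGEF12 (chromosome 11, 120207122 to 120360646), a guanine nucleotide exchange factor for RhoA. Their scores were 52.2, 36.2, 40.1, 37.4, 59.7 and 34.1 in order along the chromosome. The first and the fifth of these were the only peaks of any member with a score above the list's median. ARHGEF12 held 17 peaks in 154 kb and was itself named by 11, and these 6 are among the 17. The 6 other named members had 8 peaks among them.

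Of the remaining genes, CADPS, which primes vesicles for release, held 2 peaks in introns 7 and 25 with scores of 37.7 and 38.6, both named for FEZF2, whose TSS lay 213 and 59.8 kb away. The sorting receptor gene SORCS1 and the potassium channel partner gene KCNIP4 had none. RBFOX3, a splicing factor known as the nuclear marker NeuN of mature neurons, was named by 1 intergenic peak 25.2 kb upstream of its TSS, with a score of 35.4, and held none. Its relative RBFOX1, the longest member, held 0 peaks in 2.47 Mb, which allows up to 1.21 per Mb. CSMD3, a large membrane protein with CUB and Sushi domains, was named by 1 intergenic peak of score 33.6 at 987 kb upstream, and CSMD1 by none, and neither held a peak. ERBB4, a receptor for neuregulins, had none. In all, 25 of 39 members (64.1%, interval 48.4 to 77.3%) had no peak by either measure, as had 55.3% (interval 51.9 to 58.5%) of the other long genes.

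**Figure D3:**
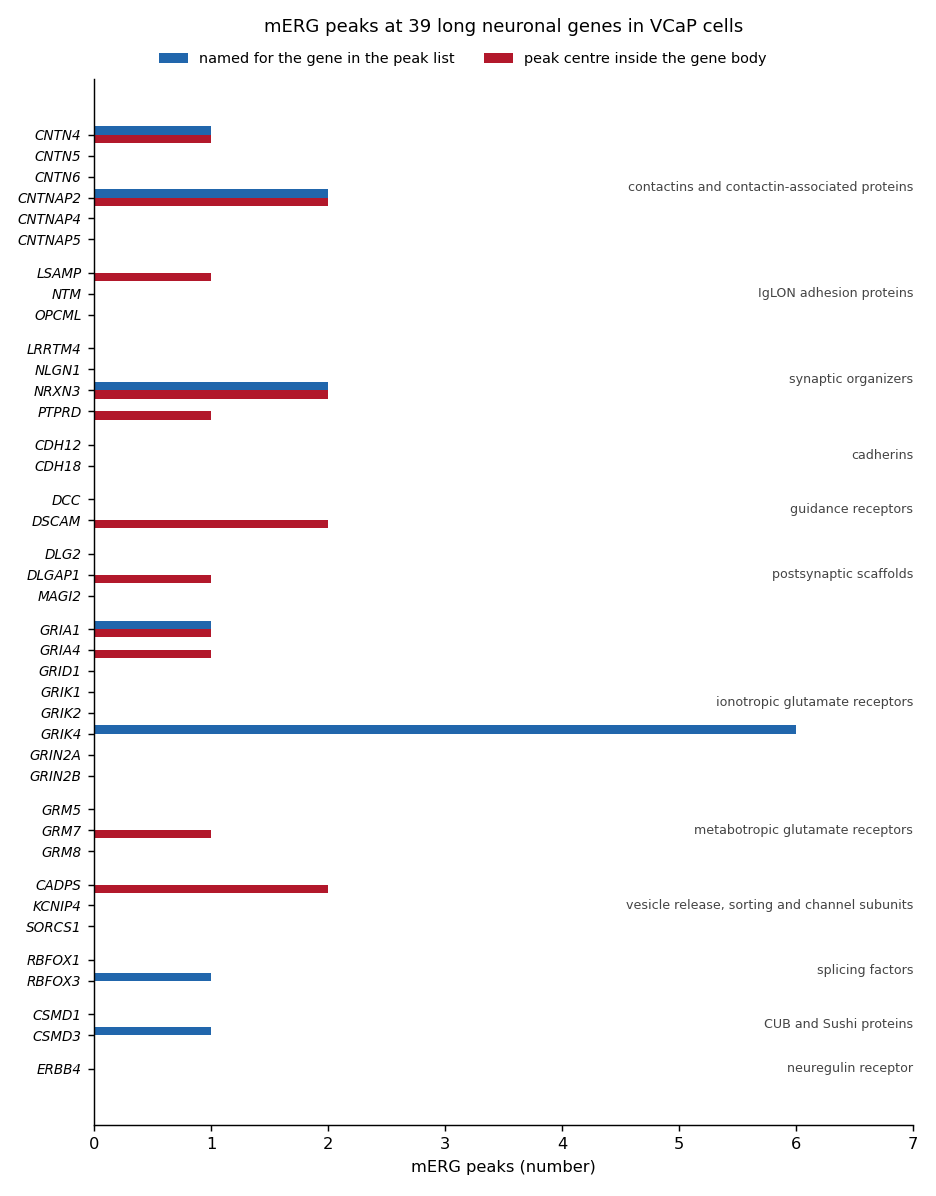
Number of mERG peaks for each of the 39 genes, grouped by role, with blue bars for peaks named for the gene and red bars for peak centres inside its body. GRIK4 has 6 named peaks and 0 inside, and no gene has more than 2 inside.

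The peaks of the member genes scored low within the list. Peaks named for members had scores from 33.3 to 59.7 with a median of 35.7 (order-statistic 95% interval 33.6 to 40.5), against a median of 40.9 for the 18056 peaks named for other genes. The 15 peaks inside member genes ranged from 33.1 to 40.5, and all 15 scored below the list's median, whereas 48.6% of the 3140 peaks inside other long genes scored at or above it. A score of at least 50 was reached by 0 of these 15, which allows a share of up to 20.0%, and by 24.3% of the peaks inside other long genes. The strongest peak of each named member had a median score of 35.4, and that of the 5004 other named genes 44.5. Peaks inside member genes were also narrow, with a median width of 240 bp against 403 bp in other long genes.

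**Figure D4:**
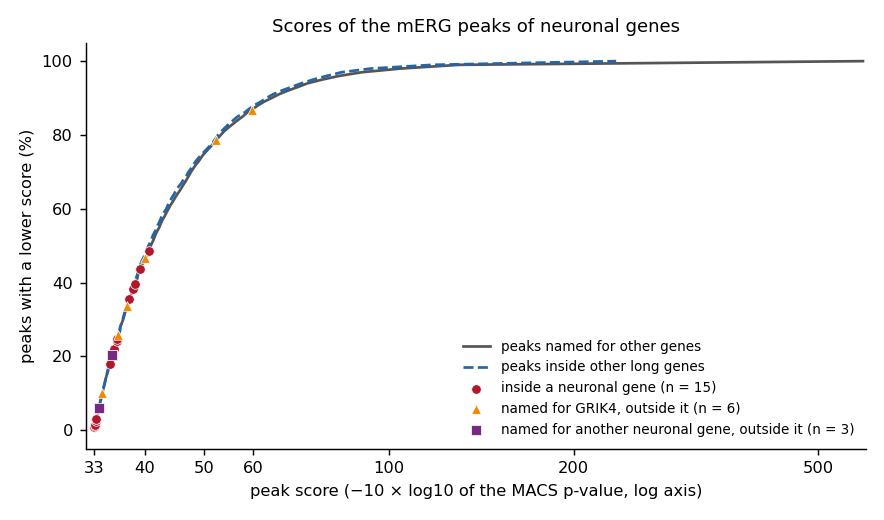
Share of peaks with a lower score (percent) against the score (log axis), with lines for peaks named for other genes and for peaks inside other long genes, and points for the 24 peaks of the neuronal genes. The 15 circles inside the genes end at a score of 40.5, and the points above 50 are 2 triangles named for GRIK4.

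No peak named for a member or centred inside one lay within 10 kb of its listed TSS. Peaks named for members lay between 25.2 and 987 kb from the TSS, with a median of 55.4 kb (order-statistic 95% interval 31.2 to 427), while those named for other genes had a median of 27.7 kb. Within 10 kb of a TSS there were 0 of 14 member peaks, which allows a share of up to 21.4%, and 20.1% of the others. Upstream of the TSS lay 9 of 14, 6 of them the GRIK4 peaks inside ARHGEF12, against 24.5% of the others. For the nearest peak of each gene, the median was 122 kb over the 7 named members and 12.5 kb over the other named genes. Leaving out the peaks named for GRIK4, a check chosen after seeing the data, moved the median distance of member peaks from 55.4 to 288 kb over the 8 peaks left. For peaks inside the gene, the median distance to the listed TSS was 133 kb in members (order-statistic 95% interval 59.8 to 254) and 61.1 kb in other long genes, which lies within that interval, and the members are also the longer genes. Only the LSAMP peak fell in the first 10% of its gene. Introns held 14 of the 15 peaks inside members, beside 95.3% of those inside other long genes. The list named a repeat, such as an old transposon or LTR, at the centre of 3 of these 15 peaks (20.0%, Wilson 95% interval 7.05 to 45.2%), at CNTNAP2, DLGAP1 and DSCAM, and of 1163 of the 3140 peaks inside other long genes.

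**Figure D5:**
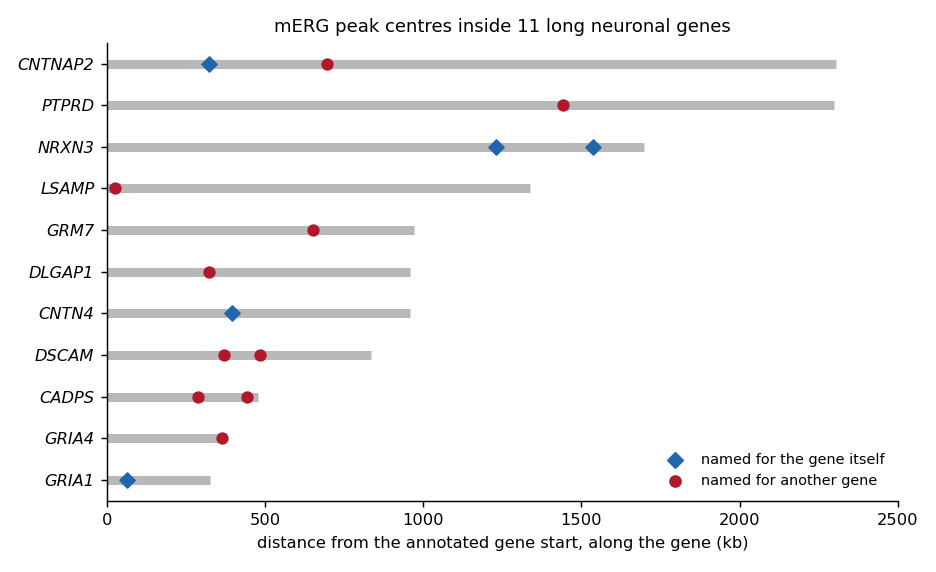
Peak centres along the 11 neuronal genes that held any, as distance from the annotated gene start (kb), with gene bodies as grey bars. Blue diamonds are the 5 peaks named for the gene itself, red circles the 10 named for another gene, and 1 of the 15 lies in the first 10% of its gene.

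Chromosomes differed widely in peak density, so members were set beside the other long genes of their own chromosome. The density of the members was lower on each of the 16 chromosomes that carry one. On 8 of these the members held 0 peaks, so any peak in the other long genes made them lower there. On chromosome 3, with 6 members, the density was 1.01 against 6.70 per Mb, and on chromosome 7 it was 0.439 against 9.68. On chromosome 11, with 7 members, it was 0.143 against 3.86, and on chromosome 21 it was 1.61 against 23.6. At the densities of other long genes on the same chromosomes the members would hold 273.7 peaks, and they held 15. This number takes no account of length, and the density of other long genes falls with length. It also takes no account of where on a chromosome a gene lies. CSMD1, for example, was given the 12.0 per Mb of other long genes on chromosome 8. Its neighbours held 0 peaks in 268 kb, and its nearest peak lay 1507 kb away. Neighbours held no peak for 16 members and held some for 23, as given below. At the densities of other long genes of the same 3 length classes, a check chosen after seeing the data, the members would hold 111.6 peaks. On chromosome 16 the other long genes had 1 peak in 8.54 Mb, so the lack of a peak at RBFOX1, GRIN2A and CNTNAP4 cannot be told apart from a lack of peaks on that chromosome. Neither copy number nor transcription of the genes was measured here, and their part in these values was not tested.

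Members were set beside their neighbours as well. Within 1 Mb on either side, the bodies of other protein-coding genes held 359 peaks, or 16.3 per Mb, with neighbours that belong to several members counted for each. Over the genome, protein-coding gene bodies held 12.9 per Mb (exact Poisson 95% interval 12.7 to 13.1), so peaks in the neighbours were not much denser than in genes at large. Peaks in such neighbours were found for 23 members, 14 of which held none themselves. GRM8 held 0 peaks in 814 kb while its neighbours held 75 in 567 kb. The neighbours of DLG2 held 46, those of GRIK1 38 and those of MAGI2 31, and each of these members held 0. In all, 21 members were lower in peaks per Mb than their neighbours. CADPS (4.19 against 3.25 per Mb) and GRIA4 (2.68 against 2.19) were higher, and LSAMP and GRM7 held 1 peak each beside neighbours with 0. For DLG2 the closest peak lay 1.89 kb outside the gene, next to its start. For 16 members the neighbours held no peak, and 5 of them (CNTNAP5, LRRTM4, CDH18, SORCS1 and CSMD3) had no protein-coding neighbour within that distance. Over the 28 members without a peak inside, the nearest peak lay at a median of 633 kb from the gene.

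A list of 32 long genes known to be used in epithelial or in many cell types served as contrast. It was chosen with earlier results from the same peaks in view, so its values are a description and not an independent contrast. Of the 32 genes, 21 (65.6%, interval 48.3 to 79.6%) were named by a peak, and 24 (75.0%, interval 57.9 to 86.7%) held at least 1 inside. They held 26.9 peaks per Mb (exact Poisson 95% interval 24.7 to 29.4), against 0.371 in the members. Much of this came from 5 genes (RERE, FOXP1, NCOA2, KMT2C and GRHL2), which held 326 of the 512 peaks, while 8 of the 32 genes held 0. Without those 5, a check chosen after seeing the data, the list held 10.9 per Mb (interval 9.37 to 12.6). The 32 genes are also shorter than the members, with a median length of 460 kb against 959 kb. This list was not set beside the members by chromosome, although chromosomes differed widely in peak density. In the 3 length classes used above, from shortest to longest, the list held 52.4, 18.0 and 7.04 peaks per Mb. The members held 1.14, 0.471 and 0.228 in the same classes. RERE, a transcriptional corepressor, was named by 88 peaks, the forkhead factor gene FOXP1 by 55, and KMT2C, a histone methyltransferase, by 46. The longest genes of this list without a named peak were WWOX, which held 0 peaks on chromosome 16, ZBTB20, which held 5, and PTPRK, which held 1.

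The families of the member genes also have relatives outside the list, 65 of which were looked up. By name 13 (20.0%, interval 12.1 to 31.3%) had a peak and 12 held at least 1 inside. Among the 19 that were at least as long as the shortest member, 6 held at least 1 inside. The most named peaks were at LRRTM2 (15), RBFOX2 (11) and KCNIP2 (7), but LRRTM2 and KCNIP2, which are 6.45 and 17.9 kb long, held 0. Among the longest relatives without a named peak were DLGAP2 and NEGR1, which held 0 and 1. The relatives with more than 2 peaks inside, which were picked after their values were seen, were MAGI1, RBFOX2, DLG1, DLGAP4 and SORL1. MAGI1, a scaffold of cell junctions, held 15 (21.9 per Mb) and MAGI2 held 0. RBFOX2, a splicing factor, held 14 (48.3 per Mb), and RBFOX1 and RBFOX3 held 0. For RBFOX1 this contrast says little, since other long genes on its chromosome 16 had 1 peak in 8.54 Mb. DLG1, which acts in cell polarity, held 8 (31.2 per Mb) and DLG2 held 0. DLGAP4 held 6 and DLGAP1 held 1, and the sorting receptor gene SORL1 held 4 and SORCS1 held 0. Not every pair was of this kind, since CADPS2 held none beside 2 in CADPS. Other relatives that epithelial cells are known to use held few, with 1 peak in EGFR and in MAGI3 and 0 in ERBB2, ERBB3, PTPRF and SORT1.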

How the data were processed

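ChIP-seq was done in VCaP cells with 1 mERG ChIP library and 1 control library. The authors deposited 1 list of peaks with a score for each, called with MACS and annotated with HOMER on hg19 per the file header. The submitters' processing notes name Bowtie2, Picard and HOMER, with no versions, and thresholds are not given in the sources used here. The score was read as log10 p of MACS multiplied by −10, the convention of early versions of that tool, and the depth behind it is unknown. The deposited distances, in bp, run from the peak centre to the TSS.

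Genes were matched by the name in the list, then by Ensembl identifier, to the 20149 protein-coding genes of GENCODE release 44 on GRCh37, and all 39 members were found. The 24 chromosomes with peaks matched that build, and 33 peaks on unplaced sequences had no motif window. Of the 18070 peaks, 40 name no gene. Peak centres in gene bodies were counted in merged intervals. Shares were given with Wilson 95% intervals, densities with exact Poisson intervals, and a count of 0 with the limit that 3 counts allow. No test between groups was made, since genes are not replicates and each group is 1 library. The counting was tested on simulated data.

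Every member is named. In the relative and epithelial lists the 3 genes with the most named peaks and the 3 longest without one are named, except 1 gene that is not reported here. The members and lists were chosen with earlier results of these data known. Alternatives were stricter scores, other distances, other gene assignments and leaving out single genes. The work was done in Python 3.11.15, with Matplotlib 3.10.9 for plots, SciPy 1.17.1 for intervals, and pandas 2.3.3 and NumPy 2.4.6 for tables.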

Additional observations from a re-analysis of the deposited data

How the results depend on the processing

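Of 30 repeats under other settings, 22 planned and 8 added after seeing the data, 15 left the value alike (counts and means within 1.5 times, medians within their interval) and 15 moved it. With the stronger 50% of peaks, and also with scores of at least 50, the members named fell from 7 to 1 (GRIK4), while 19.2% and 11.3% of the other long genes were named. The mean number of named peaks per member fell from 0.359 to 0.0513, and the members with a peak inside from 11 to 0, while 26.4% and 16.2% of the other long genes still held one. The median score of the 2 member peaks left, both named for GRIK4, was 56.0 in both, above the 50.0 of other peaks in the first setting and below their 60.6 in the second. The relatives named fell from 13 to 8 and 4, and the epithelial list from 21 to 15 and 12. Fewer peaks by construction lower these counts. With peaks within 100 kb of the TSS 3 members and 25.5% of the other long genes were named, by peaks inside the gene 11 and 42.2%, and at 500 kb or more 4 of 30 members and 31.3%. Without GRIK4, the member with the most peaks, the mean was 0.211 per member, the median score 35.2 and the median distance 288 kb, over 1.5 times the 55.4 kb with it, although inside the wide interval of that median. Dropping peaks wider than 5 kb together with the highest 1% of scores left the 5 member results as they were.

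No paired analysis was possible because only 1 library of each kind was made. With no replicate and an unknown depth, a member without a peak had none detected at this depth, which does not show that mERG was absent.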

Other observations

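Among protein-coding genes of 1 Mb or more, 17 members stood beside 54 others. The highest density was at PDE4D, a phosphodiesterase gene, with 29 peaks inside (18.7 per Mb), followed by NAALADL2 with 9 and TBC1D5 with 8. The highest of the members in this class was NRXN3, which ranked 9 with 1.18 per Mb. Neural genes outside the list differed among themselves, with 5 peaks in PTPRN2 (4.77 per Mb) and 1 in ROBO2. These genes were picked after their values were seen.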
